A study of Mus musculus with 30 samples.

Results

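Hypoxia and glycolysis genes in the mouse colon were followed through chemically induced colitis and tumour development. The set holds 10 genes, picked by symbol from the 46078 genes of the deposited count table: *Slc2a1*, *Hk2*, *Pgk1*, *Ldha*, *Vegfa*, *Adm*, *Egln3*, *Car9*, *Bnip3* and *Ndrg1*. All 10 passed the filter on low counts. The colons came from female and male wild-type C57BL/6J mice that were 5 to 10 weeks old at the start. Treated mice received 1 injection of azoxymethane (AOM, a colon carcinogen, 10 mg/kg) and then 3 cycles of dextran sodium sulfate (DSS, which injures the colon epithelium) at 2.5% in the drinking water, in weeks 1, 4 and 7. They were killed at 9 weeks, soon after the last DSS cycle, or at 15 weeks, and vehicle mice (saline injection, no DSS) were killed at 9 weeks. Each combination of sex and condition had 5 libraries, 30 in all. The 15-week comparison with vehicle therefore sets older mice against younger ones, and treatment and age cannot be told apart in it.

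RNA was taken from the scraped epithelial layer rather than from dissected tumours, so each value is a mixture of the cells the scraping caught. Fewer cells of a type and less RNA per cell cannot be told apart in such bulk samples. All 10 colon epithelium markers (among them *Epcam*, *Vil1* and *Krt20*) had counts in every group. The 30 libraries held between 9265804 and 30806392 counts (median 24697064.5). A pair of libraries stood apart by their cell type markers. In male vehicle replicate 1, the mean log2 CPM (counts scaled to a common library size) of 10 smooth muscle markers was 8.63, against at most 4.46 in any other library. In female AOM/DSS 9 weeks replicate 5, the mean log2 CPM of 9 neutrophil markers was -2.23, whereas the other 9 libraries of that time point lay between 0.52 and 3.68. Where a result changed without one or both of these libraries, its value without them is given beside it, except for results on the marker lists.

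When oxygen is plentiful, prolyl hydroxylases such as Egln3 mark the alpha subunits of hypoxia-inducible factor (HIF) for destruction through the von Hippel-Lindau protein. When oxygen is scarce the subunits persist, pair with Arnt and switch on genes for glucose uptake, glycolysis, blood vessel growth, pH control and mitochondrial clearance. The colon epithelium borders a lumen that is almost free of oxygen and is a classic site of physiological hypoxia, and inflammation adds oxygen demand from infiltrating cells. The genes described here are textbook HIF targets acting at different points along this path.

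HIF binds the short core ACGTG or GCGTG. RefSeq promoter windows (250 bases before to 50 after an annotated start, mouse build GRCm38.p6, the same build as the counts) were found for 9 of the 10 genes, with 11 starts. Either core, on either strand, was present in 10 of these 11 promoters (90.9%), compared with 43.8% of all 32851 promoters of the table. The core ACGTG alone was in 8 of the 11 (72.7%), against 19.6% of all promoters. The remaining window, at the upstream start of *Vegfa*, held no match, while the other *Vegfa* window held both cores. *Ldha* and *Bnip3* carried ACGTG within the palindrome CACGTG, which counts on both strands. These matches describe the letters in the windows and are not evidence of binding. The promoters of the 4 genes with the smallest adjusted p at 9 weeks are printed (*Hk2*, *Pgk1*, *Adm* and *Slc2a1*), as the 250 bases before the start on the gene's strand, with the cores in capitals (CACGT is ACGTG and CACGC is GCGTG on the opposite strand). *Hk2* lies at chr6:82774455-82774704 (minus strand), *Pgk1* at chrX:106186850-106187099 (plus strand), *Adm* at chr7:110627407-110627656 (plus strand) and *Slc2a1* at chr4:119108495-119108744 (plus strand).
Hk2: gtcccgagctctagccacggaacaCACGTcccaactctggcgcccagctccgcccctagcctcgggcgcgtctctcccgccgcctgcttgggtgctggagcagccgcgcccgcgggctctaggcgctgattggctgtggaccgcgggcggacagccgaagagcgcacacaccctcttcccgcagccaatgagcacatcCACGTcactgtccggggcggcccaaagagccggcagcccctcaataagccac
Pgk1: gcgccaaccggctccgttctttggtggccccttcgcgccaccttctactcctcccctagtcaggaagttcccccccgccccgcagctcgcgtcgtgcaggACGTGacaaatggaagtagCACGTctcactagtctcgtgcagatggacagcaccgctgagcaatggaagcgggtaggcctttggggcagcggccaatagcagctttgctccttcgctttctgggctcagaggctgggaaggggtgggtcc
Adm: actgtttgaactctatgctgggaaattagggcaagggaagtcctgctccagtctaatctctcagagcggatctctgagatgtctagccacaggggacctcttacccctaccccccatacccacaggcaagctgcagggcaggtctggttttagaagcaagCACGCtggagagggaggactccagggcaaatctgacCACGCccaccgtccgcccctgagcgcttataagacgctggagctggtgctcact
Slc2a1: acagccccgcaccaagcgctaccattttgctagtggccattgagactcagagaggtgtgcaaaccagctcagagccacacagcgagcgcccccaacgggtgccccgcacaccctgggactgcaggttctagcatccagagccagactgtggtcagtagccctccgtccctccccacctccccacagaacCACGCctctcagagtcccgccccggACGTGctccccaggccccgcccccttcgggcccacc
Both cores of *Hk2* are ACGTG on the opposite strand, at 226 and 52 bases before the start, and those of *Adm* are GCGTG on the opposite strand, at 90 and 54 bases. *Pgk1* holds ACGTG at 150 bases and its reverse at 131 bases, and *Slc2a1* holds 1 of each core, at 61 and 36 bases. No promoter was printed for *Ndrg1*.

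Compared per transcript length in TPM (a share of all transcripts corrected for length), the 10 genes kept much the same order in every condition. *Ldha*, whose enzyme turns pyruvate into lactate, was the most abundant, at 388 ± 130 TPM in vehicle, 474 ± 83.0 TPM at 9 weeks and 372 ± 147 TPM at 15 weeks (SD, n = 10 each). *Pgk1*, the phosphoglycerate kinase of glycolysis, followed at 104 ± 38.1 TPM in vehicle, and *Ndrg1*, a stress-responsive gene of differentiated epithelium, came next (47.9 ± 17.7 TPM). In vehicle, *Slc2a1*, *Car9*, *Hk2*, *Vegfa* and *Egln3* formed a middle tier between 26.5 and 18.1 TPM, in which each gene differed from its neighbour by less than the larger SD, and the spread of *Egln3* (17.6 TPM) also took in *Bnip3*. *Bnip3* (6.09 ± 5.07 TPM) and *Adm* (2.24 ± 0.892 TPM) were lowest and also lay within the larger SD of one another. *Hk2* moved from rank 6 in vehicle (22.1 ± 8.53 TPM) to rank 4 at 9 weeks (45.6 ± 14.9 TPM) and was back at rank 6 at 15 weeks (24.5 ± 11.5 TPM). These ranks are a description, and neighbours among *Hk2*, *Slc2a1* and *Car9* lay within the larger SD of each other in every condition. TPM also moved with mitochondrial transcripts, which took a median of 62.3% of all TPM in vehicle, 55.1% at 9 weeks and 64.7% at 15 weeks. Most of this was 1 gene, *mt-Nd4l*, with medians of 48.0%, 42.8% and 49.5% of TPM. Of the counts, mitochondrial genes took medians of 7.88%, 5.07% and 8.62%. For *Ldha* the ratio of the 9-week mean to the vehicle mean was 1.22 in TPM but 1.02 in CPM, and for *Hk2* it was 2.06 in TPM and 1.66 in CPM. Conditions are therefore compared in CPM from here on.

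**Figure D1:**
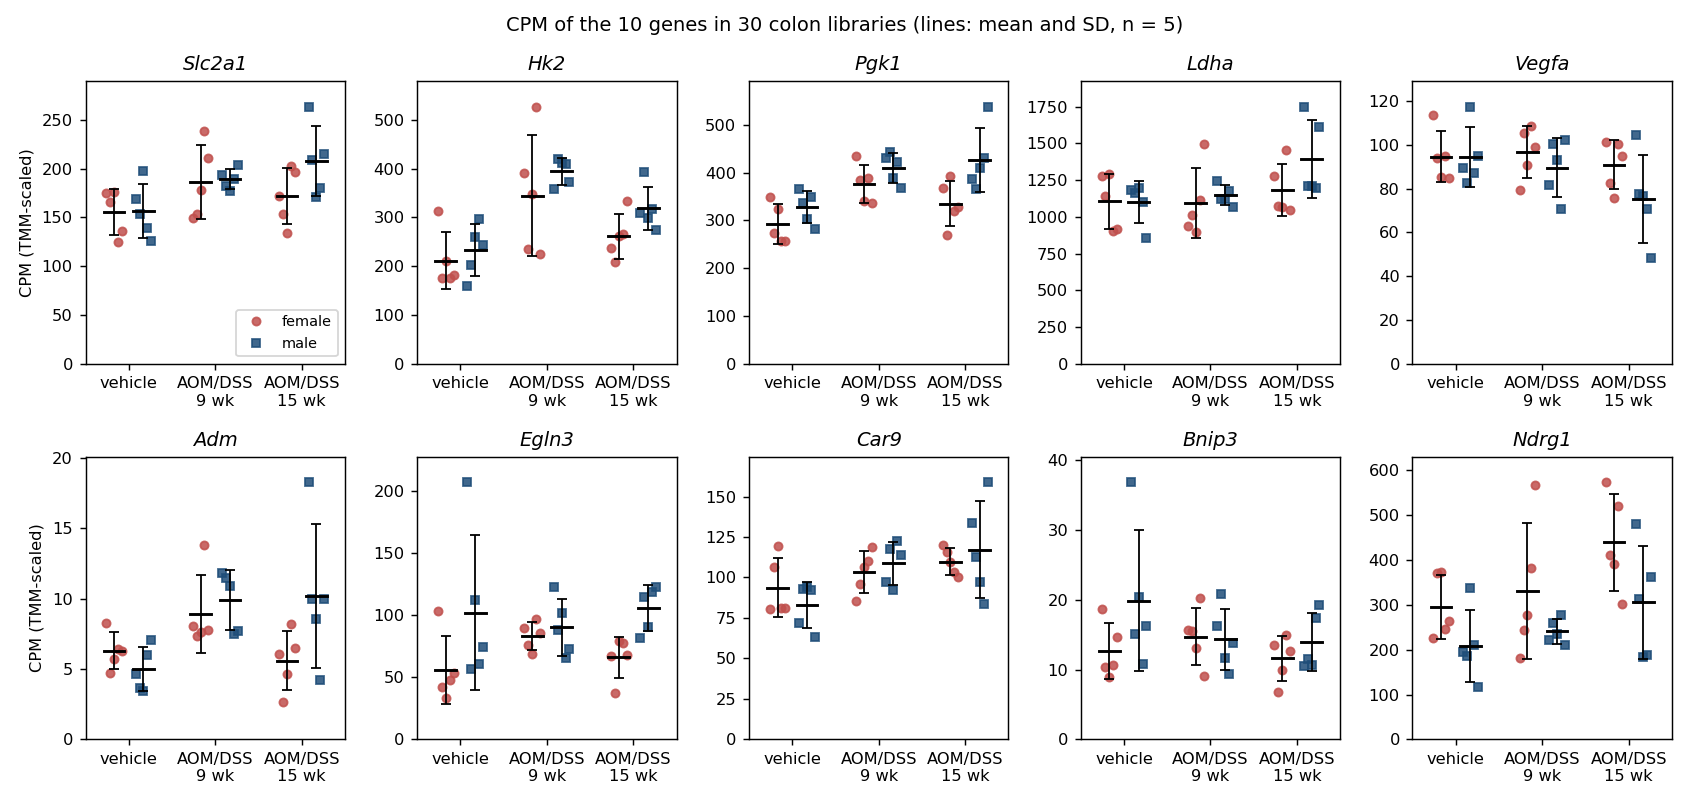
CPM (y axis, linear from 0) of each of the 10 genes in the 30 libraries by condition (x axis), with females as red circles and males as blue squares, and black lines for the mean and SD of 5 libraries. *Hk2*, *Pgk1* and *Adm* in male colons at 9 weeks lie wholly above the male vehicle libraries, and single high libraries stand out for *Egln3* and *Bnip3* in male vehicle.

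At 9 weeks, with the sexes averaged, *Hk2* and *Adm* rose and none of the 10 genes fell. Genes were called changed when the Benjamini-Hochberg adjusted p of edgeR's quasi-likelihood test was under 0.05, the log2 fold change exceeded 0.4 in size and the mean FPKM reached 1 in a compared group. By this rule 2 of the 10 genes were called, where 8.29% of all 16261 genes tested were called (5.51% higher and 2.78% lower). Shares of all genes called, here and below, are from the edgeR fit on all 30 libraries. They are not given for DESeq2 or for fits without some libraries, so counts of genes called there describe the listed genes alone. The median log2 fold change of the 10 genes was 0.23, and that of all genes tested was -0.02. The estimates of 8 of the 10 were positive.

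*Hk2* (chr6:82725025-82774454, GRCm38, minus strand) encodes hexokinase 2, the inducible enzyme that traps glucose in the cell. Female vehicle libraries held 313, 176.7, 211, 175 and 182 CPM, and male vehicle libraries 160, 203, 259, 298 and 245 CPM. At 9 weeks the female libraries held 390, 235, 347, 527 and 224 CPM, and the male libraries 357, 421, 412, 410 and 372 CPM. Every male library at 9 weeks was above every vehicle library, while the female libraries spread from vehicle-like to more than any other library of the study. The fitted log2 fold change was 0.73 ± 0.14 (SE), 1.66-fold, with an edgeR adjusted p of 0.000515, and 8 of the 10 treated libraries exceeded all 10 vehicle libraries. The call was kept in each of the 20 fits that left out 1 library, with log2 fold changes from 0.63 to 0.82.

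*Adm* (chr7:110627661-110629820, plus strand) encodes adrenomedullin, a vasodilating peptide that also stabilises vessels and epithelial barriers. It was a scarce transcript, with 50 to 334 reads per library. Vehicle levels were 8.31, 4.70, 5.74, 6.45 and 6.29 CPM in females and 4.69, 3.64, 3.44, 6.01 and 7.09 CPM in males. At 9 weeks they were 8.04, 7.32, 7.62, 13.8 and 7.79 CPM in females and 11.8, 11.5, 10.9, 7.46 and 7.74 CPM in males. All 10 treated libraries lay above the vehicle median of 5.87 CPM, and 4 lay above every vehicle library. The log2 fold change was 0.75 ± 0.21 (SE) with an edgeR adjusted p of 0.0153, and it too was called in 20 of 20 fits without 1 library (0.64 to 0.83).

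*Pgk1* (chrX:106187100-106203699, plus strand) was higher by a small and even margin. Vehicle libraries ranged from 257 to 366 CPM (median 314) and 9-week libraries from 337 to 443 CPM (median 389), and 8 of the 10 treated libraries exceeded every vehicle library. Its log2 fold change of 0.35 ± 0.08 (SE) had an edgeR adjusted p of 0.00412 but missed the fold minimum. *Slc2a1* (chr4:119108711-119137983, plus strand), the basal glucose transporter Glut1, had a log2 fold change of 0.27 ± 0.10 (adjusted p 0.0769). *Ldha* (chr7:46841475-46855627, plus strand) showed the smallest shift of the glycolytic members, 0.02 ± 0.10, with a 95% interval of -0.18 to 0.22. The estimates of the glycolytic members thus ran from 0.02 to 0.73, and the differences between these genes were not tested.

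*Vegfa* (chr17:46016993-46032377, minus strand), the main growth factor of blood vessels, had vehicle levels of 82.6 to 118 CPM and 9-week levels of 70.7 to 109 CPM, and a log2 fold change of -0.02 ± 0.10 (adjusted p 0.921). The 95% interval, -0.22 to 0.18, excluded a shift as large as the fold minimum. *Car9* (chr4:43506966-43513729, plus strand), the cell-surface carbonic anhydrase of hypoxic cells, was estimated at 0.27 ± 0.11 (adjusted p 0.0868). The antisense transcript *Gm12454* overlaps *Car9* and reached 622 counts, against 759 to 4635 counts for *Car9*. How strand was handled in counting is not given in the sources used here, so reads of the pair cannot be told apart. *Egln3* (chr12:54178981-54203860, minus strand) was estimated at 0.20 ± 0.21. *Ndrg1* (chr15:66929321-66969640, minus strand) was at 0.18 ± 0.20, and the mitophagy receptor *Bnip3* (chr7:138890836-138909519, minus strand) at -0.13 ± 0.20. These 3 estimates were no larger than their errors, with adjusted p from 0.585 to 0.740, and 1 library could decide them. *Egln3* ran from 0.12 to 0.41 over the fits without 1 library, the highest without male vehicle replicate 1 and the next without female vehicle replicate 1. *Ndrg1* ran from 0.035 without female AOM/DSS 9 weeks replicate 5 to 0.30 without male vehicle replicate 3, and *Bnip3* from -0.21 to 0.047, the positive end again without male vehicle replicate 1. Without both libraries that stood apart the estimate of *Bnip3* changed sign to 0.11 and that of *Ldha* to -0.03.

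**Figure D2:**
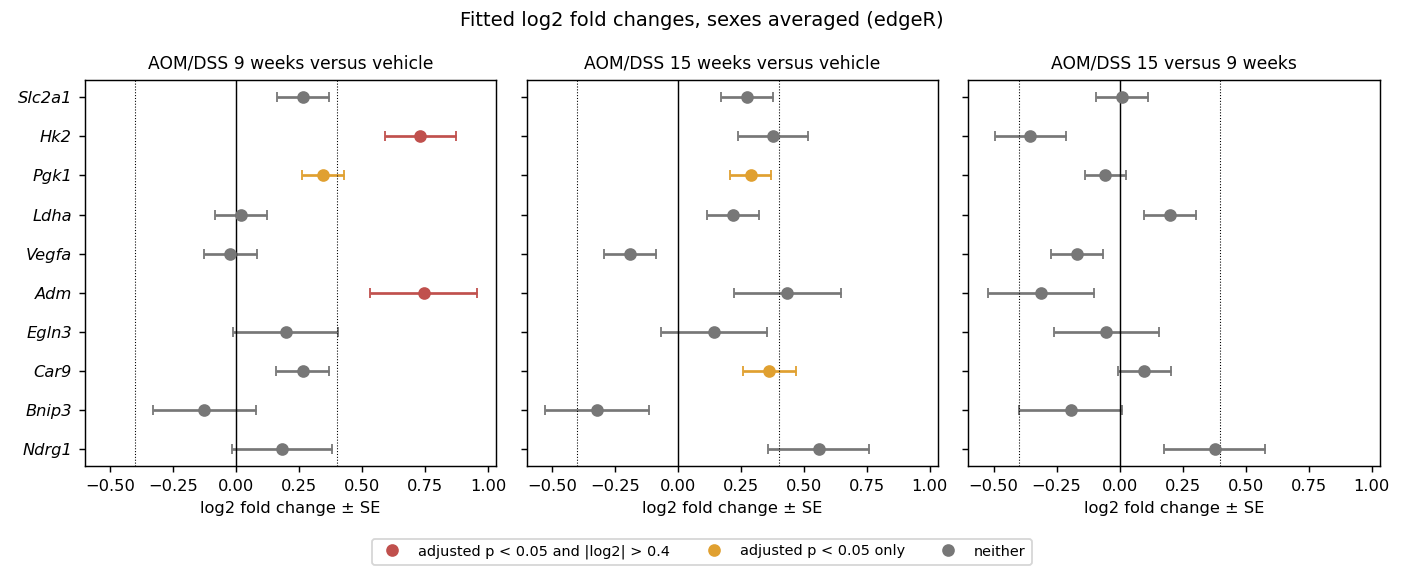
Fitted log2 fold changes (x axis) with their SE for the 10 genes (rows) in the 3 comparisons with sexes averaged, dotted lines marking the fold minimum of 0.4. *Hk2* and *Adm* at 9 weeks are the called genes (red), *Pgk1* at 9 weeks and *Pgk1* and *Car9* at 15 weeks passed the adjusted p alone (orange), and no other estimate did either.

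Neutrophil transcripts were also higher at 9 weeks, though not in every library. Of the 10 neutrophil markers, 5 were called higher at 9 weeks and the median log2 fold change of the 9 tested was 5.16. Their summed CPM ranged from 12.9 to 180 in vehicle and from 11.0 to 216 at 9 weeks, most of it *Ly6g*, and *S100a8* and *Cxcr2* had no count in any female vehicle library, where *Stfa2l1*, which was too low to test, had none either. The same female library (replicate 4) was highest at 9 weeks for the neutrophil list (3.68), *Hk2* (527 CPM) and *Adm* (13.8 CPM), and replicate 5 was lowest for both the list and *Hk2* (224 CPM). Across the 30 libraries *Hk2* and the list had a Pearson r of 0.72 (Spearman 0.73), and 0.41 (Spearman 0.24) after the 6 group means were removed. For *Adm* these r were 0.56 and 0.34. This was not particular to neutrophils, since within groups *Adm* had an r of 0.48 with the mean of 10 endothelial markers. With fibroblast markers it was 0.45 and with macrophage markers 0.34. Within groups *Pgk1* (0.48) and *Bnip3* (0.52), neither of them called, had a higher r with the neutrophil list than *Hk2*. The summed CPM of the 10 macrophage markers ranged from 32.8 to 225 in vehicle and from 79.5 to 299.9 at 9 weeks, and 4 of them were called higher. Of the 10 T cell markers, 2 were called higher at 9 weeks, all 10 estimates were positive with a median log2 fold change of 1.39, and no marker was at 0 throughout a group. Their summed CPM ranged from 6.57 to 21.4 in vehicle and from 13.75 to 34.0 at 9 weeks, and *Hk2* had an r of 0.57 (Spearman 0.52) with this list over the 30 libraries and of 0.30 within groups. The part of these cells in the *Hk2* and *Adm* values was not tested.

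At 15 weeks none of the 10 genes was called, where 7.35% of all genes were (3.46% higher and 3.89% lower). At an unadjusted p under 0.05 there were 6 of the 10, beside 34.2% of all genes, and DESeq2 called 1, *Ndrg1*. *Pgk1* (log2 fold change 0.29 ± 0.08, edgeR adjusted p 0.0189) and *Car9* (0.36 ± 0.11, adjusted p 0.0212) passed the adjusted p but not the fold minimum. Levels of *Car9* ran from 63.2 to 119 CPM in vehicle (median 86.7) and from 83.5 to 158.7 CPM at 15 weeks (median 111), so the ranges overlapped widely. *Hk2* had a log2 fold change of 0.38 ± 0.14 (adjusted p 0.0583), with all 10 treated libraries above the vehicle median of 207 CPM. *Adm* stood at 0.43 ± 0.21 (adjusted p 0.147), *Slc2a1* at 0.27 ± 0.10 (adjusted p 0.0615) and *Ldha* at 0.22 ± 0.10 (adjusted p 0.131).

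*Ndrg1* had the largest estimate at 15 weeks, 0.56 ± 0.20, with an edgeR adjusted p of 0.0518. Its vehicle levels were 225, 371, 373, 246 and 264 CPM in females and 195, 186, 337, 211 and 117 CPM in males. At 15 weeks they were 573, 411, 391, 521 and 303 CPM in females and 481, 313, 185, 187 and 363 CPM in males. Of the treated libraries, 5 of 10 were above every vehicle library, and the lowest male ones sat among the vehicle males. The result lay on the threshold, since the scaling of DESeq2 in edgeR (adjusted p 0.0476) and DESeq2 itself (adjusted p 0.0300) moved it across. Leaving out female vehicle replicate 2 or 3, male vehicle replicate 3, female AOM/DSS 15 weeks replicate 5 or male AOM/DSS 15 weeks replicate 3 or 4 also did so, with log2 fold changes from 0.61 to 0.68. *Ndrg1* was thus called in 6 of the 20 fits without 1 library. Over all 20 its edgeR adjusted p ran from 0.022 to 0.114 and its log2 fold change was as low as 0.46. *Hk2* was called without female vehicle replicate 1 (0.47), male vehicle replicate 4 (0.43) or female AOM/DSS 15 weeks replicate 2 (0.43), and *Car9* without female vehicle replicate 3 (0.41) or male AOM/DSS 15 weeks replicate 3 (0.41) or 4 (0.42). *Vegfa* (-0.19 ± 0.10, adjusted p 0.197) and *Bnip3* (-0.32 ± 0.21, adjusted p 0.273) were the members with negative estimates.

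Markers of muscle and stroma were lower at 15 weeks with the sexes averaged. Of 10 smooth muscle markers, 7 were called lower, with a median log2 fold change of -2.97, and 5 of 10 fibroblast and 2 of 10 endothelial markers were called lower. The smooth muscle sum was 77.5 to 6043 CPM in vehicle, 6043 CPM being male replicate 1, and 56.7 to 141 CPM at 15 weeks, and no marker of these lists was at 0 throughout a group. The fibroblast sum was 32.8 to 1265 CPM in vehicle (median 123) and from 20.1 CPM upward at 15 weeks (median 63.8), and the endothelial sum 7.79 to 104 CPM and 6.35 to 31.3 CPM. The sexes differed in this. From vehicle to 15 weeks, the median of the smooth muscle list mean went from 3.14 to 1.46 in males and from 0.52 to 0.72 in females. For fibroblast markers it went from 3.82 to 2.30 in males and from 1.73 to 1.94 in females. For endothelial markers it went from 1.92 to -0.08 in males and from -0.71 to -1.03 in females. With the mean log2 CPM of the smooth muscle and fibroblast markers as a covariate no member was called at 15 weeks either, and *Pgk1* (0.33, edgeR adjusted p 0.0308) alone still passed the adjusted p, *Car9* being at 0.33 (adjusted p 0.0830). In that fit *Ndrg1* was at 0.47 (adjusted p 0.167), *Egln3* at 0.53 (adjusted p 0.11) and *Bnip3* at -0.03 (adjusted p 0.953).

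Between 9 and 15 weeks no member was called (2.32% of all genes were, 0.418% higher and 1.91% lower), and *Hk2* alone had an unadjusted p under 0.05 (23.7% of all genes did), while DESeq2 called none of the 10. The *Hk2* mean moved from 370 ± 88.9 to 290 ± 52.2 CPM (SD, n = 10 each), a log2 fold change of -0.35 ± 0.14 with an edgeR adjusted p of 0.124. Of the 15-week libraries, 9 of 10 lay below the 9-week median of 381 CPM. Without both libraries that stood apart it was -0.41 (adjusted p 0.0252) and passed. *Adm* was estimated at -0.31 ± 0.21 (adjusted p 0.369) and *Ndrg1* at 0.38 ± 0.20 (adjusted p 0.249). These comparisons share libraries with those against vehicle.

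Males and females were then compared for the response to treatment. In males at 9 weeks *Hk2* and *Adm* were called (7.31% of all genes were), and their 5 treated libraries lay wholly above the 5 vehicle libraries, as did those of *Pgk1* and of 5.55% of all genes tested. The log2 fold changes were 0.76 ± 0.20 for *Hk2* (edgeR adjusted p 0.0148) and 0.99 ± 0.30 for *Adm* (adjusted p 0.0346). Without male vehicle replicate 1, neither was called (0.65 and 0.97, adjusted p 0.0510 and 0.0748). *Adm* also lost its call without male vehicle replicate 2 or 3 or male AOM/DSS 9 weeks replicate 1, 2 or 3, at log2 fold changes from 0.88 to 0.95. In females at 9 weeks 1 member, *Hk2*, was called (2.90% of all genes were), at 0.70 ± 0.20 (adjusted p 0.0383), and it was called in 3 of 10 fits that left out 1 library, those without female vehicle replicate 1 or female AOM/DSS 9 weeks replicate 2 or 5. In the other 7 its log2 fold change was 0.50 to 0.70. *Adm* was estimated at 0.50 ± 0.30 in females (adjusted p 0.425). The male minus female difference in response at 9 weeks was 0.06 ± 0.28 for *Hk2* and 0.49 ± 0.42 for *Adm*, with adjusted p of 0.981 and 0.825, and the interval for *Hk2* ran from -0.49 to 0.60.

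At 15 weeks, *Adm* and *Car9* were called in males (8.92% of all genes were) and no member in females (0.0984% were). *Adm* in males at 15 weeks read 18.3, 10.0, 8.53, 4.20 and 10.0 CPM, so 4 of 5 libraries exceeded all male vehicle libraries. In females it read 6.09, 2.63, 4.62, 8.20 and 6.49 CPM, and no library exceeded the highest female vehicle library. The log2 fold change was 1.03 ± 0.30 in males (edgeR adjusted p 0.0229) and -0.17 ± 0.30 in females (adjusted p 0.855). The difference between the sexes was 1.20 ± 0.43, with an unadjusted p of 0.00868 and an adjusted p of 0.488 over all genes, so it was not shown. *Car9* in males was at 0.50 ± 0.15 (adjusted p 0.0267). Leaving out male vehicle replicate 1 ended both male calls (*Adm* 1.01, *Car9* 0.45), and leaving out male AOM/DSS 15 weeks replicate 1 did too (0.74 and 0.46). *Adm* also lost its call without male vehicle replicate 3 (0.93), and *Car9* without male vehicle replicate 5 (0.42) or male AOM/DSS 15 weeks replicate 5 (0.38). Without male AOM/DSS 15 weeks replicate 3, 4 members were called, *Slc2a1* and *Pgk1* among them, and the share of all genes called in that fit is not given here. In females none of the 10 had an unadjusted p under 0.05, where 10.9% of all genes did, and DESeq2 called none. The largest female estimate was that of *Ndrg1*, 0.57 ± 0.28 (edgeR adjusted p 0.462), beside 0.55 ± 0.28 in males (adjusted p 0.185). At 9 and 15 weeks edgeR called no gene for a difference in response between the sexes, with 1205 and 1245 genes at an unadjusted p under 0.05, while DESeq2 called 0 and 4.

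Levels were also set side by side between the sexes within each condition, and no member was called in vehicle (0.178% of all genes were), at 9 weeks (0.0492%) or at 15 weeks (0.184%), by edgeR or by DESeq2. At an unadjusted p under 0.05 the members numbered 2, 0 and 3, beside 18.7%, 3.87% and 12.4% of all genes. *Egln3* had the largest difference in vehicle, with 103, 42.1, 33.2, 47.5 and 53.1 CPM in females and 207, 56.6, 112, 60.5 and 74.2 CPM in males. The log2 difference (males minus females) was 0.87 ± 0.30 (edgeR adjusted p 0.114), and 0.44 without male vehicle replicate 1. Without female vehicle replicate 1 it was 1.22 and passed (adjusted p 0.0103). With the muscle and fibroblast covariate the difference in vehicle was 0.25 and not called. The median of the smooth muscle list mean was 3.14 in male and 0.52 in female vehicle, and that of the fibroblast list 3.82 and 1.73. The part of these cells in the *Egln3* difference was not tested. At 15 weeks every male library (81.5 to 123 CPM) was above every female one (37.7 to 79.2 CPM) for *Egln3*, at a log2 difference of 0.68 ± 0.30 and an adjusted p of 0.341, and 0.879% of all genes had their male libraries wholly above in the same way. *Ndrg1* went the other way in all 3 conditions, with male minus female estimates of -0.50, -0.46 and -0.52 and adjusted p of 0.349, 0.999 and 0.468.

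The spread among libraries of a group was shared by some of the 10 genes. After the 6 group means were removed, the log2 CPM of *Slc2a1*, *Ldha*, *Ndrg1* and *Car9* varied together, with Pearson r of 0.78 for *Car9* and *Ndrg1*, 0.76 for *Ldha* and *Ndrg1*, and 0.73 for *Slc2a1* and *Ldha*. *Egln3* and *Bnip3* formed another pair (0.78, Spearman 0.73), and *Egln3* and *Car9* had an r of -0.38. *Hk2* had its highest r with *Adm* (0.39) and an r of -0.13 with *Ldha*, which became 0.26 and -0.31 without the 2 libraries farthest from its median. Left out in the same way for the first-named gene, r was 0.78 for *Car9* and *Ndrg1*, 0.66 for *Ldha* and *Ndrg1*, 0.76 for *Slc2a1* and *Ldha*, and 0.69 for *Egln3* and *Bnip3*. These are descriptions over 30 libraries that share one scaling, and no p is attached.

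**Figure D3:**
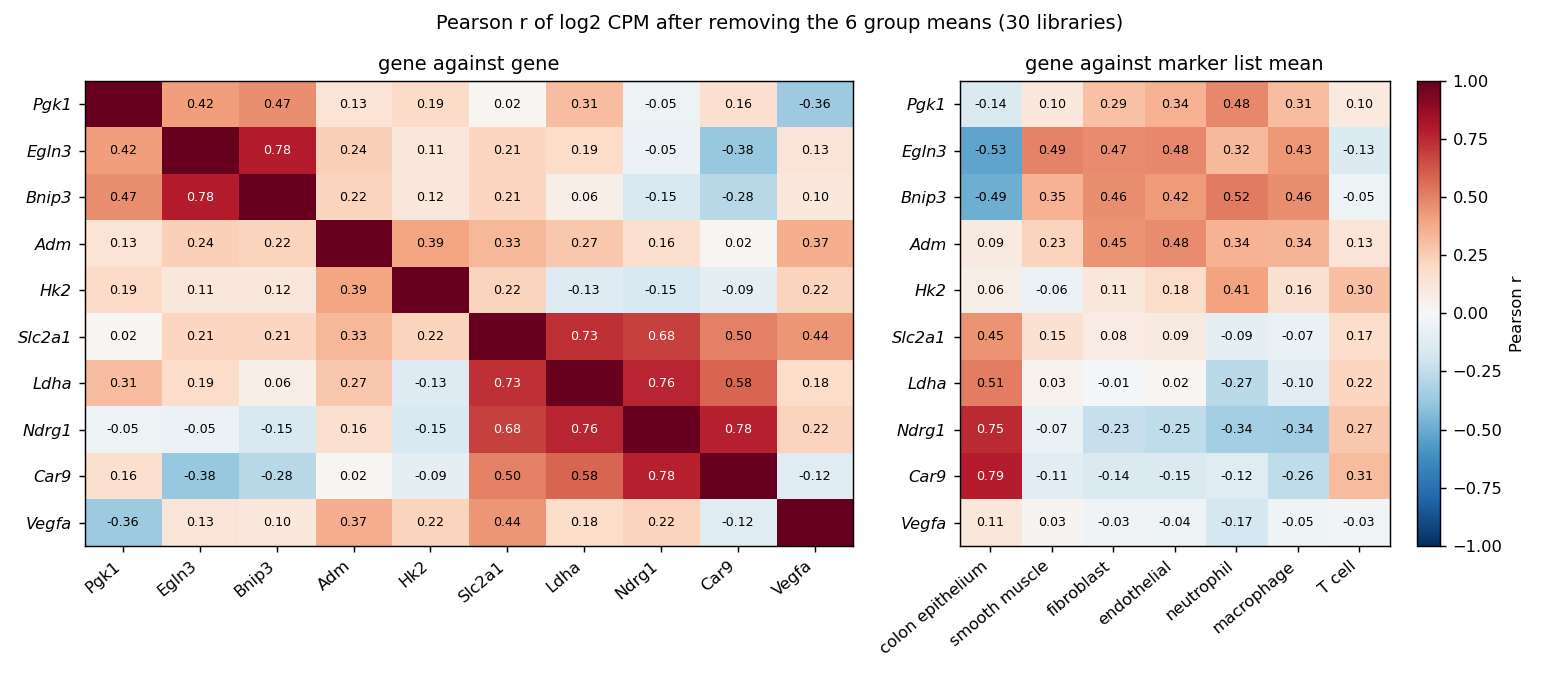
Pearson r (colour and number) of log2 CPM over 30 libraries after the 6 group means were removed, between the 10 genes (left) and between each gene and the mean of 7 cell type marker lists (right). A red block joins *Slc2a1*, *Ldha*, *Ndrg1* and *Car9*, of which *Ndrg1* and *Car9* track the epithelium list at 0.75 and 0.79. *Egln3* and *Bnip3* pair up and have r of -0.53 and -0.49 with that list (Spearman -0.335 and -0.396, not drawn).

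The same genes also differed in their relation to the marker lists. *Car9* and *Ndrg1* followed the mean of the 10 colon epithelium markers within groups (r 0.79 and 0.75), and *Ldha* and *Slc2a1* did so more loosely (0.51 and 0.45). *Egln3* and *Bnip3* had the opposite sign (-0.53 and -0.49), weaker by rank (Spearman -0.335 and -0.396). Both were highest, at 207 and 36.8 CPM, in the male vehicle library with the most smooth muscle and the least epithelium (9.32 against 9.63 to 11.0 in the others). The r without that library is not given here. The epithelium sum was 12030 to 38940 CPM in vehicle, 17570 to 41090 CPM at 9 weeks and 16670 to 44660 CPM at 15 weeks, and 1 and 2 of its 10 markers were called higher at 9 and 15 weeks. What share of the differences between libraries this list carries was not tested.

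**Figure D4:**
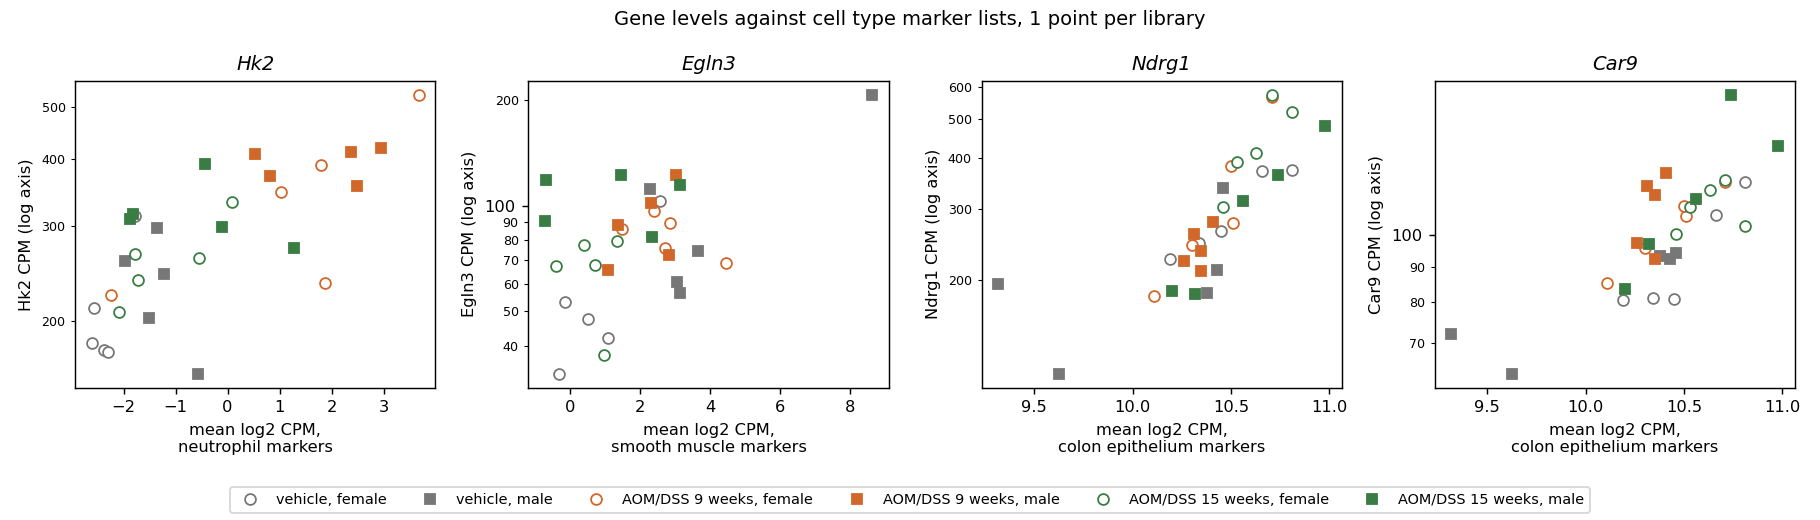
CPM of *Hk2*, *Egln3*, *Ndrg1* and *Car9* (y axes, log scale) in each library against the mean log2 CPM of a cell type marker list (x axes), coloured by condition, with males filled and females open. *Hk2* rises with the neutrophil list across conditions, 1 vehicle library at 8.63 on the smooth muscle axis has the highest *Egln3*, and *Ndrg1* and *Car9* rise along the epithelium axis in every condition.

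For each gene, the 3 genes most like it over the 30 libraries were found by Pearson r of log2 CPM. For *Ldha* they were the glycolytic genes *Eno1* (0.87), *Aldoa* (0.87) and *Gapdh* (0.86), and for *Bnip3* they included the pyruvate dehydrogenase kinase *Pdk1* (0.80) after *Rasl12* and *Aplp2*. *Hk2* was nearest to *Tnfrsf1b*, a receptor for tumour necrosis factor (0.86), then *Stom* (0.82) and *B3galt5* (0.81). *Egln3* was nearest to *Il1rn*, the interleukin-1 receptor antagonist (0.84), then *Rab31* and *Anxa8*. *Ndrg1* was nearest to the monoglyceride lipase *Mgll* (0.93), *Mfsd6l* and *Hsd17b11*, and *Car9* to *Serinc2* (0.90), *Ppp2r1a* and *Cfl1*. *Slc2a1* went with *Lamb3* (0.81), *Coro1c* and *Plekhm1*, *Pgk1* with *Igsf23* (0.84), *Gch1* and *Susd1*, and *Adm* with *Baiap2l1* (0.77), *Rnf19b* and *Bcl6*. *Vegfa* had the loosest neighbours, led by *RP23-331L5.1* at 0.75.

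The other genes of the pathway were read from lists of 10 HIF subunits and regulators, 22 further glycolysis genes and 22 further hypoxia-induced genes (21 tested). A further list held 8 receptors, co-receptors and accessory proteins for VEGF and adrenomedullin, called receptors below. These lists, like the members, were drawn up with earlier results of these data known. None of the 10 HIF genes was called at 9 weeks by edgeR or DESeq2, and 2 had an unadjusted p under 0.05, as did 29.0% of all genes. *Hif1a*, the oxygen-labile subunit, ranged from 42.3 to 191 CPM in vehicle (median 97.8) and from 31.1 to 249 CPM at 9 weeks (median 156.6), a log2 fold change of 0.72 ± 0.29 (edgeR adjusted p 0.0931). Without female AOM/DSS 9 weeks replicate 5 it was 0.85 and passed (adjusted p 0.0191), and without female vehicle replicate 1 it was 0.94 (adjusted p 0.0211). *Epas1* (-0.10 ± 0.11), *Arnt* (-0.03 ± 0.08) and *Vhl* (-0.11 ± 0.07), which encode HIF-2 alpha, its partner and the von Hippel-Lindau protein, had adjusted p from 0.322 to 0.853. At 15 weeks 1 of the 10, *Hif3a*, fell (log2 fold change -0.81 ± 0.23, adjusted p 0.0177), and it was not called without male vehicle replicate 1, where it was -0.63 (adjusted p 0.0498) with a mean FPKM under 1, nor with the muscle and fibroblast covariate (-0.51, adjusted p 0.212). *Epas1* (-0.36, adjusted p 0.0264) and *Arnt* (-0.24, adjusted p 0.0455) passed the adjusted p alone.

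Among the 22 further glycolysis genes, 2 rose and 1 fell at 9 weeks, where 5.51% of all genes were called higher and 2.78% lower. *Slc16a3*, the lactate exporter Mct4, had 2.34 to 9.44 CPM in vehicle and 7.31 to 33.4 CPM at 9 weeks, a log2 fold change of 2.03 ± 0.31 (edgeR adjusted p 4.31e-05). *Pfkfb3*, which makes the activator of phosphofructokinase, had 2.67 to 13.8 CPM and 4.19 to 28.5 CPM, a log2 fold change of 1.86 ± 0.30 (adjusted p 7.39e-05), the vehicle maximum being male replicate 1 and the 9-week minimum female replicate 5. *Pfkm*, the muscle-type phosphofructokinase, fell by 0.58 on the log2 scale (adjusted p 0.000607). *Hk3* and *Slc2a3*, named after their values were seen, had adjusted p of 0.00235 and 0.00324 and log2 fold changes of 2.24 and 1.91, but mean FPKM of no more than 0.268. The median over the list was 0.01, and *Eno1*, *Gapdh* and *Aldoa*, the neighbours of *Ldha*, were among those not called. At 15 weeks *Slc16a3* (1.33 ± 0.31, adjusted p 0.00619) was still higher than in vehicle and *Pfkm* still lower (-0.50 ± 0.11, adjusted p 0.00545), a call lost with the muscle and fibroblast covariate (-0.38, adjusted p 0.0662). *Pfkfb3* fell from 9 to 15 weeks, by 1.74 on the log2 scale (adjusted p 0.00472), but was not called with that covariate (-1.24, adjusted p 0.181). Its 15-week levels of 2.30 to 10.5 CPM were within the vehicle range apart from the lowest.

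*Slc16a3* and *Pfkfb3* also moved with the neutrophil list, with r of 0.82 and 0.92 over the 30 libraries and 0.65 and 0.81 after the group means were removed. This was not particular to neutrophils, since within groups their r was 0.68 and 0.69 with the macrophage list. With the fibroblast list it was 0.62 and 0.61. Whether these transcripts came from epithelial or infiltrating cells was not tested.

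**Figure D5:**
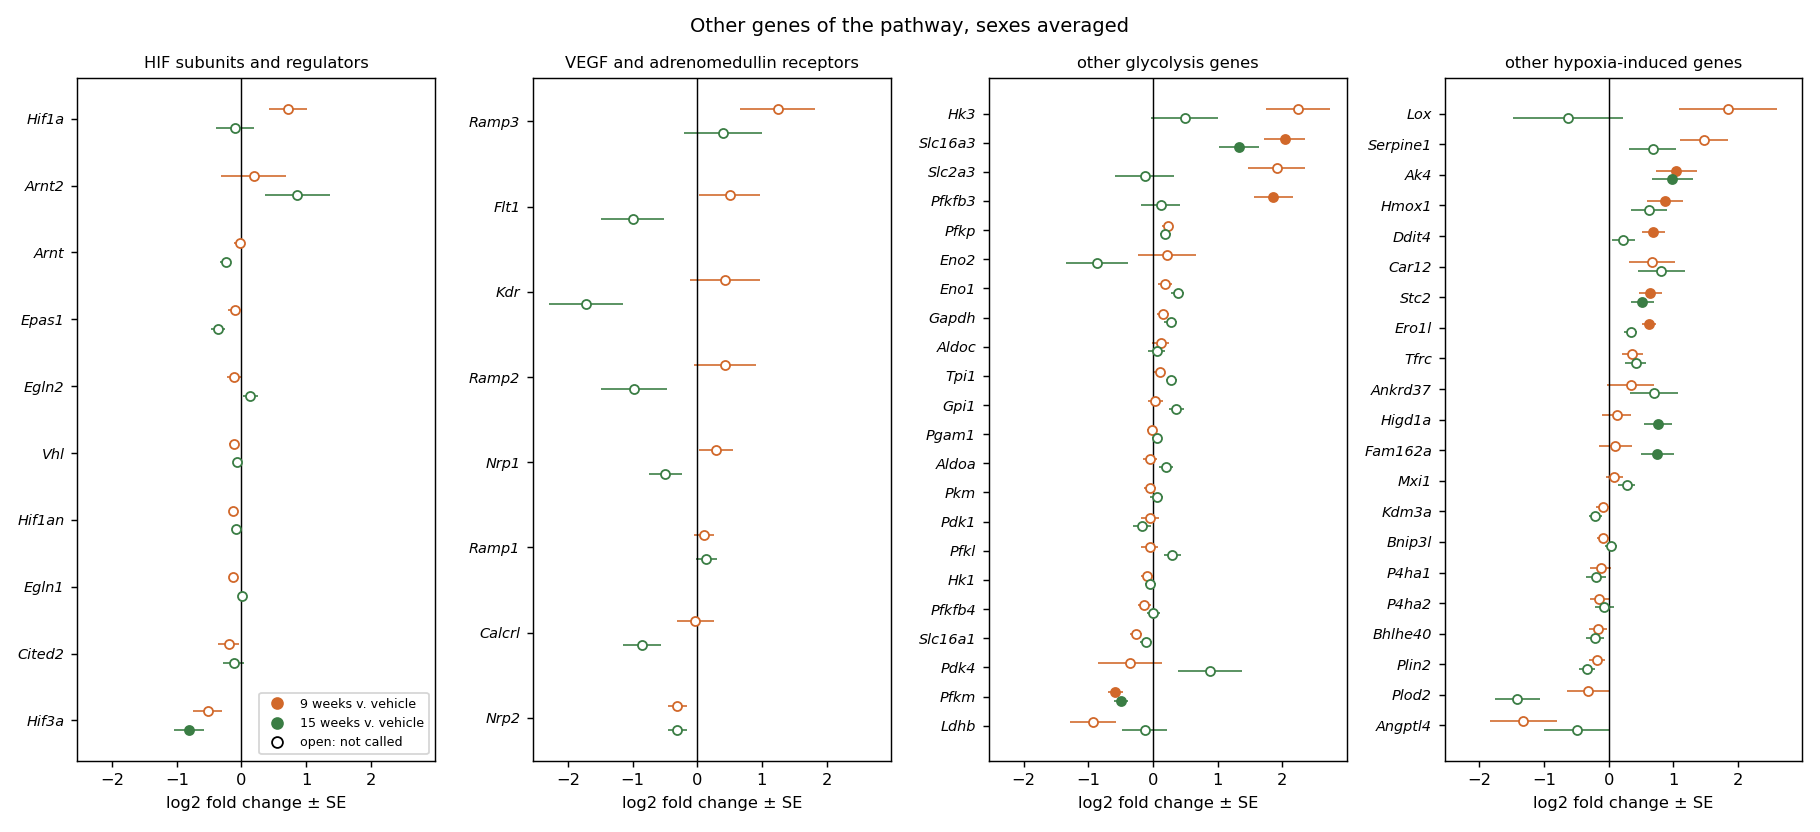
Log2 fold changes against vehicle (x axis) with their SE for the genes of 4 pathway lists (rows, ordered by the 9-week estimate), at 9 weeks in orange and at 15 weeks in green, with filled points for called genes. *Slc16a3* and *Pfkfb3* stand out at 9 weeks, most glycolytic enzymes lie near 0, and the receptors have no filled point.

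Of the 21 further hypoxia-induced genes tested, 5 rose at 9 weeks, 4 rose at 15 weeks and none fell in either comparison. Of all genes 5.51% were called higher at 9 weeks and 3.46% at 15 weeks. Those at 9 weeks were *Ak4*, a mitochondrial adenylate kinase (1.04 ± 0.32, edgeR adjusted p 0.0235), the heme oxygenase *Hmox1* (0.87 ± 0.28, adjusted p 0.0322), the mTORC1 inhibitor *Ddit4* (0.69 ± 0.17, adjusted p 0.00652), the secreted stanniocalcin *Stc2* (0.64 ± 0.18, adjusted p 0.0128) and the oxidative-folding enzyme *Ero1l* (0.62 ± 0.11, adjusted p 0.000144). For *Ero1l* the groups did not overlap, with vehicle libraries at 50.2 to 64.3 CPM and 9-week libraries at 65.1 to 136 CPM, as was so for 0.935% of all genes. *Hmox1* was called in 13 of 20 fits without 1 library, and the other 4 in 20 of 20, but *Ak4* was not called without both libraries that stood apart (0.84, adjusted p 0.0605). At 15 weeks *Ak4* (0.98 ± 0.32, adjusted p 0.0331), *Higd1a* (0.76 ± 0.22, adjusted p 0.0210), *Fam162a* (0.75 ± 0.25, adjusted p 0.0419) and *Stc2* (0.51 ± 0.18, adjusted p 0.0451) were called. Of these, *Higd1a*, a mitochondrial stress protein, was called in 20 of 20 fits without 1 library, and *Ak4*, *Fam162a* and *Stc2* in 10, 10 and 7. Without both libraries that stood apart *Ak4* (0.88, adjusted p 0.0573) and *Stc2* (0.40, under the fold minimum) were not called. With the muscle and fibroblast covariate none of the 4 was, *Higd1a* being at 0.56 (adjusted p 0.113), *Ak4* at 0.86 (adjusted p 0.104), *Fam162a* at 0.49 (adjusted p 0.197) and *Stc2* at 0.40 (adjusted p 0.178). No gene of this list was called between 9 and 15 weeks by edgeR, with 7 of 21 at an unadjusted p under 0.05 (23.7% of all genes), and 1 was by DESeq2. The median log2 fold change of the list was 0.12 at 9 weeks and 0.28 at 15 weeks, beside -0.02 and -0.03 for all genes.

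None of the 8 receptors for VEGF and adrenomedullin was called by edgeR in the 3 comparisons. At an unadjusted p under 0.05 they numbered 2 at 9 weeks, 4 at 15 weeks and 5 between them, beside 29.0%, 34.2% and 23.7% of all genes, and DESeq2 called 0, 0 and 1. *Kdr*, the main VEGF receptor, and *Calcrl*, a part of the adrenomedullin receptor, were both named after their values were seen. At 15 weeks they had log2 fold changes of -1.72 ± 0.57 (edgeR adjusted p 0.0383) and -0.85 ± 0.29 (adjusted p 0.0425), but mean FPKM below 1 in both conditions. At 9 weeks, when *Adm* rose, the adjusted p of the 8 receptors ran from 0.154 to 0.962.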

How the data were processed

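RNA of scraped colon epithelium from 30 mice was sequenced from poly-A-selected stranded libraries. Per the labels and methods, the authors demultiplexed with bcl2fastq 2.20.0.422, trimmed with Trim Galore, aligned to mm10 with STAR, counted reads per gene with featureCounts (deposited counts, not normalized) and estimated TPM and FPKM per sample with StringTie (deposited TPM and FPKM). The strand setting of the counting is not given in the sources used here. StringTie files listed 11 to 20 genes on more than 1 line, and those lines were summed. The authors' principal test was DESeq2.

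Here edgeR 4.0.16 (R 4.3.3, limma 3.58.1) filtered low counts (filterByExpr, 16261 genes kept), scaled by TMM (0.832 to 1.10) and fitted a quasi-likelihood model with 6 groups of 5 libraries. A gene was called at a Benjamini-Hochberg adjusted p under 0.05, a log2 fold change above 0.4 in size and a mean FPKM of at least 1 in a compared group. DESeq2 1.42.0 and other settings were alternatives. Log2 CPM used a prior count of 2. TPM served only to compare genes. The procedure was tested on simulated counts. Labels name the replicates biological, and none of 60 within-group pairs agreed within sampling noise. Members and gene lists were chosen with earlier results of these data known. Pathway genes were named when called (at most 5 per list and comparison), with *Hif1a*, *Epas1*, *Arnt* and *Vhl*. Tables and plots used Python 3.11.15, pandas 2.3.3, numpy 2.4.6, scipy 1.17.1 and matplotlib 3.10.9.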

Additional observations from a re-analysis of the deposited data

Results flagged for a closer look

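Of 60 combinations of gene and group of 5 libraries, 3 held a library far from the other 4 by Dixon's test, and chance gives about 1 in 20. *Ldha* in male vehicle replicate 5 was at 856 CPM, below the other 4 (1100 to 1196 CPM). *Adm* in female AOM/DSS 9 weeks replicate 4 was at 13.8 CPM, above the others (7.32 to 8.04 CPM). *Egln3* in female AOM/DSS 15 weeks replicate 2 was at 37.7 CPM, below the others (67.5 to 79.2 CPM).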

How the results depend on the processing

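The calls of *Hk2* and *Adm* at 9 weeks with sexes averaged were made under every alternative run. At 15 weeks, where edgeR called none of the 10 genes, 2 (*Car9* and *Pgk1*) were called with no minimum fold, 1 (*Ndrg1*) with DESeq2 size factors in edgeR and 1 (*Ndrg1*) with DESeq2. Leaving out both libraries that stood apart, an alternative chosen after seeing the data, gave 1 call (*Hk2*) between 15 and 9 weeks, 1 (*Hk2*) in males at 9 weeks, 2 (*Hk2* and *Pgk1*) in females at 9 weeks and 1 (*Pgk1*) in males at 15 weeks. The female call at 9 weeks went to 0 without the filter on low counts, with a muscle and fibroblast covariate and on the compared libraries alone. In males at 15 weeks the covariate left 1 call (*Adm*) and the compared libraries alone 0. The shares of all genes called under these alternatives are not given here, so the counts describe the members alone. The cause of the changes was not tested.

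Without 1 library at a time, the number of members called was 2 to 2 at 9 weeks, 0 to 2 at 15 weeks, 0 to 2 in males and 0 to 2 in females at 9 weeks, 1 to 4 in males at 15 weeks and 0 to 1 between the sexes in vehicle, and 0 in the other comparisons. Estimates near 0 changed sign in such fits, with ranges of -0.048 to 0.024 for *Vegfa*, -0.055 to 0.052 for *Ldha* and -0.21 to 0.047 for *Bnip3* at 9 weeks, and -0.10 to 0.034 for *Egln3* and -0.027 to 0.061 for *Slc2a1* between 15 and 9 weeks. Without both libraries that stood apart, *Ldha* and *Bnip3* at 9 weeks were at -0.034 and 0.11, and with the covariate *Egln3* and *Bnip3* between 15 and 9 weeks were at 0.31 and 0.10.

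Same-numbered libraries did not vary together (75 pairs, r from -0.58 to 0.47, median -0.03, and 4 of 30 libraries closest to their own number), so the numbers were not taken as pairs. With the replicate block the female call of *Hk2* at 9 weeks was lost (0 members called, log2 fold change 0.68, adjusted p 0.0606), and over all genes 1282 instead of 1348 were called at 9 weeks, 934 instead of 1195 at 15 weeks and 268 instead of 378 between them. *Adm* rested on 50 to 334 reads per library.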
